A study of Mus musculus with 661 samples.

Results

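Bone morphogenetic proteins (BMPs) and the proteins that hold them in check were followed through the stroma of young and old mouse bone marrow. The 10 genes were taken by symbol from the count table: the ligands Bmp2, Bmp3, Bmp4, Bmp5, Bmp6 and Bmp7, the secreted antagonists Grem1, Nog and Chrdl1, and the membrane pseudoreceptor Bambi. They are 10 of the 45771 nuclear genes of the table, and each of the 10 had counts. The study sorted single stromal cells of mouse bone into wells and read full-length transcripts by a method based on Smart-Seq2, without molecular identifiers. It asked how stromal subsets at the bone surface and in the central marrow change with age. The table held 661 cells, 336 from young and 325 from old mice, each cell deposited as its own sample. All animals were wild-type C57BL/6 of both sexes, young ones 6 to 12 weeks old and old ones at least 18 months, most of them about 24 months.

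Each well received a cell without the blood markers Ter119 and CD45. Mesenchymal cells lacked CD31 and carried CD51. Among them MSC-S were Sca-1 positive, MSC-L were Sca-1 negative with PDGFRα and LepR, multipotent osteoprogenitors (mOPr) were Sca-1 negative with PDGFRα and without LepR, and osteoprogenitors (OPr) were negative for all of Sca-1, PDGFRα and LepR. Arteriolar endothelial cells (AEC) were CD31 positive, Sca-1 high and CD105 low and came from endosteal bone, whereas sinusoidal endothelial cells (SEC) were CD31 positive, Sca-1 low and CD105 high and came from central marrow. MSC-S, mOPr and OPr also came from endosteal bone and MSC-L from central marrow. Each site had its own collagenase digestion. Differences of MSC-L from the other mesenchymal cells, or of SEC from AEC, cannot be told apart from site or digestion. There were 53 young and 58 old MSC-L, 59 and 59 MSC-S, 44 and 29 OPr, 26 and 26 mOPr, 84 and 82 AEC, and 70 and 71 SEC. The labels name no mouse, so the cells of 1 population and age were summed as 1 sample, no check between mice was possible, and no test was made. Nuclear counts per cell ranged from 57517 to 1488549 with a median of 416359, and summed counts per population and age ranged from 12485462 in old mOPr to 39179615 in old MSC-S.

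BMPs are secreted dimers of the TGF-β family that bind pairs of type I and type II serine/threonine kinase receptors, which phosphorylate SMAD1, SMAD5 and SMAD9, and these enter the nucleus with SMAD4. Secreted antagonists such as gremlin, noggin and the chordin-like proteins bind the ligands outside the cell, and BAMBI resembles a type I receptor without a kinase domain and blocks signalling at the membrane. In bone the pathway is best known for driving mesenchymal cells toward osteoblasts and chondrocytes.

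Levels are the counts of a gene over the nuclear counts of a summed group, scaled to a total of 1000000 (CPM), with 95% exact Poisson intervals in parentheses. Shares of cells have exact Clopper-Pearson intervals, and ratios are log2 of old over young with exact conditional binomial intervals. These intervals cover counting error only, since reads without molecular identifiers are not independent molecules and cells differ far more than counting error. The intervals of shares take cells as independent, which cells of 1 mouse are not. A cell was taken to carry a gene at 10 CPM or more. A group without any count was set to a floor of 3 counts, taken over all its cells. The library numbers of the cells fell into 3 ranges, called lowest, middle and highest. Mesenchymal cells lay in the lowest and middle ranges, AEC in all 3 and SEC in the highest alone, so SEC could not be compared with mesenchymal cells within a range.

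Lists of marker genes were set beside the sort. In young cells the 6 markers of MSC-L, led by Cxcl12, summed to 58899 CPM in MSC-L, 5859 in OPr and 839.8 in mOPr. In old cells they summed to 48467, 23241 and 21551 CPM, with each of the 6 detected in each of these groups. The OPr and mOPr gates leave out LepR protein, yet the ICGS clusters M1 and M2, which hold the MSC-L, took in 10 of 29 old OPr and 14 of 26 old mOPr, against 3 of 44 young OPr and 2 of 26 young mOPr. Lepr stood at 2902 CPM in the old OPr cells of these clusters and at 53.2 CPM in the other 19 old OPr. Pericyte and smooth muscle markers also differed between ages, and the 8 of them summed to 795 CPM in young and 2677 in old OPr (8 of 8 detected, led by Cspg4 in young and Acta2 in old), and to 516 and 2508 in mOPr, where Rgs5 was at 0 in young cells. Chondrocyte markers ran the other way, from 48766 CPM in young OPr, led by Col2a1, to 6686 in old OPr, led by Chad, and from 11796 to 726 in mOPr, led by Comp, with each of the 7 detected. The part of these lists in the results for OPr and mOPr was not tested, other than by leaving out M1 and M2. In MSC-S the chondrocyte markers summed to 8103 CPM in young and 2912 in old cells, led by Comp. The 7 osteoblast markers there summed to 1013 and 164 CPM. In SEC the 6 AEC markers summed to 312 and 1107 CPM, and the 5 MSC-S markers to 269 and 823, both led by Ly6a. The pericyte and smooth muscle markers of SEC, led by Mcam, summed to 271 and 756 CPM. The part of these lists in the results for MSC-S and SEC was not tested.

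Old OPr also held blood cell transcripts. The 15 hematopoietic markers summed to 12101 CPM in old OPr, all 15 detected and S100a9 the highest, against 28.9 CPM in young OPr, where Cd52 was at 0. Among endothelial cells the same list summed to 653 CPM in old SEC and to 188 in young SEC. At least 7 of the 15 markers were carried by 10 old OPr and 1 old SEC. Among SEC, 9 young and 4 old cells fell in cluster E1, which the study marked as doublets of a mesenchymal and an endothelial cell, and the 10 mesenchymal markers, led by Cxcl12, summed to 6097 CPM in young and 3969.95 in old SEC. Values without these cells, or without M1 and M2, stand beside several of the results. Old OPr outside M1 and M2 still included cells with hematopoietic markers. None of the 10 old OPr with at least 7 of them carried Bmp2, Bmp4, Bmp5, Bmp6 or Grem1. Their counts add to the totals behind the OPr ratios without M1 and M2. Bmp6, Bmp7, Grem1 and Chrdl1 were themselves among the guide genes from which the mesenchymal clusters were built, and Bmp5, Grem1 and Chrdl1 among those of the endothelial clusters. Of the pathway genes given later, Fst, Nbl1 and Runx2 were guide genes of the mesenchymal clusters too, and Fst, Fstl1, Bmpr1a, Smad7, Skil, Hey1 and Runx2 of the endothelial ones. For all of these, leaving out a cluster leaves out cells that were grouped in part by the gene itself, so values with and without a cluster describe where the counts lay and are not a check of a ratio.

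Of the 10 genes, 5 had their highest level in MSC-L at both ages, namely Bmp4, Bmp5, Bmp6, Grem1 and Chrdl1. Over all genes compared, 17348 in young and 17190 in old cells, 24.7% were highest in MSC-L among young cells and 21.5% among old cells. In young cells Bmp7 and Nog were highest in OPr (13.5% of all genes), Bmp2 and Bmp3 in mOPr (13.2%) and Bambi in SEC (18%). In old cells Bmp2, Bmp3, Bmp7 and Nog were highest in mOPr (16.2% of all genes), none in OPr (17.3%) and Bambi again in SEC (17.7%). The rank of Nog rested on 1 old mOPr that held 99.5% of the counts, and 0.0859 CPM was left without that cell. None of the 10 was highest in MSC-S, where 9.8% of all genes were in young and 9.66% in old cells, or in AEC, where 20.8% and 17.6% were.

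**Figure D1:**
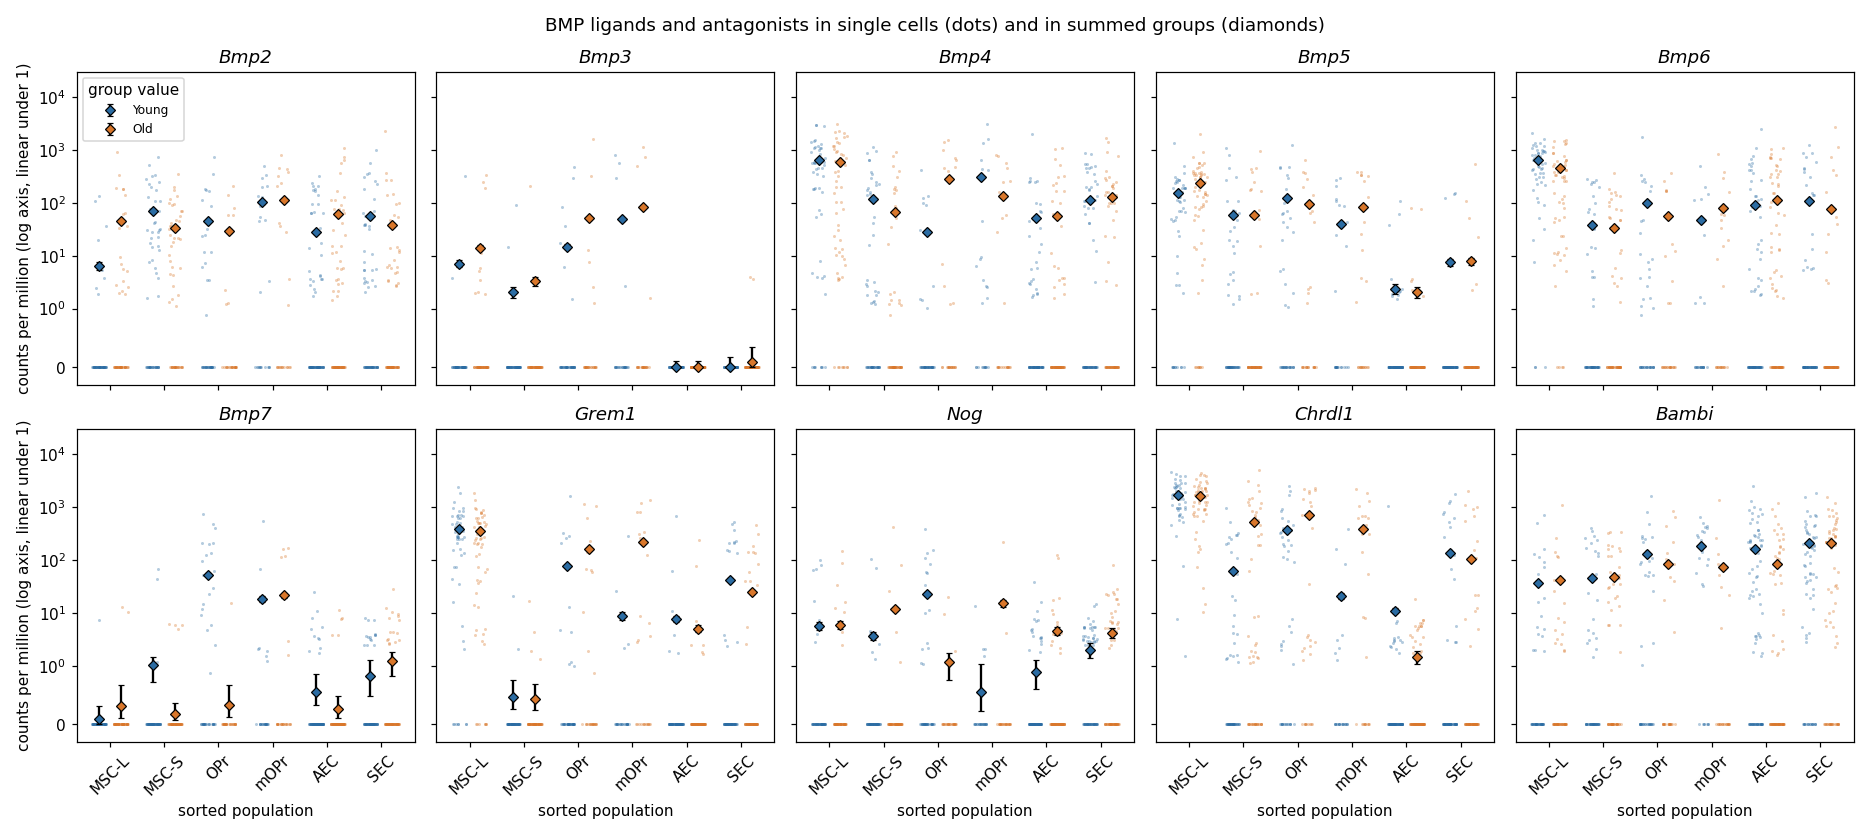
Level of each of the 10 genes in single cells (dots) and in the summed cells of each population and age (diamonds, with 95% Poisson intervals), in CPM on an axis that is logarithmic above 1 and linear below. The MSC-L diamonds of Bmp4, Bmp5, Bmp6, Grem1 and Chrdl1 stand above those of the other 5 populations at both ages, and Bmp3 lies at or near 0 in AEC and SEC.

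Bmp4, an osteoinductive ligand also needed for early mesoderm (chr14:46383520-46390669, minus strand, GRCm38), was highest in MSC-L. In young cells Bmp4 stood at 642 CPM in MSC-L, 117 in MSC-S, 27.9 in OPr, 310.5 in mOPr, 52.6 in AEC and 115 in SEC. In old cells Bmp4 stood at 603 CPM in MSC-L, 67.6 in MSC-S, 281 in OPr, 133 in mOPr, 56.8 in AEC and 131 in SEC. MSC-L lay above the other populations at both ages, and the intervals of neighbours overlapped only between MSC-S and SEC in young cells and between mOPr and SEC in old cells. Over the 53 young MSC-L the level ran from 0 to 3011 CPM with a median of 446, and over the 58 old MSC-L from 0 to 3047 with a median of 175. It was carried by 39 of 53 cells (73.6%, interval 59.7% to 84.7%) in young and 43 of 58 cells (74.1%, interval 60.96% to 84.7%) in old MSC-L. The cells of the ages overlapped, and the log2 ratio was −0.09 (−0.13 to −0.06).

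In OPr and mOPr the Bmp4 ratios ran in opposite directions. Among OPr, 6 of 44 young and 8 of 29 old cells carried it, with highest cells of 424 and 1516 CPM and medians of 0 at both ages, and the log2 ratio was 3.34 (3.23 to 3.44). Old OPr were higher in the lowest range (2.34) and in the middle range (4.79). Most of the old counts lay in cells placed with MSC-L, since the 10 old OPr of M1 and M2 stood at 549 CPM and held 87.7% of them, while the other 19 stood at 62.8 CPM. Young OPr outside M1 and M2 stood at 8.79 CPM, so the ratio without these clusters was 2.84. Few cells lay behind it, since 4 of 41 young and 2 of 19 old OPr outside M1 and M2 carried Bmp4. These shares cannot be compared directly, since the 19 included cells with hematopoietic markers. None of the 10 old OPr with at least 7 such markers carried Bmp4. Over all OPr, leaving out the top cell of each age gave 4.04. Among mOPr, 7 of 26 young and 10 of 26 old cells carried Bmp4, while its summed level was lower in old cells, with a log2 ratio of −1.22 (−1.30 to −1.14), −1.18 in the lowest range, −1.25 in the middle range and −1.12 without M1 and M2. It rested in part on 1 young cell of 3095 CPM that held 44.03% of the counts, and leaving out the top cell of each age gave −0.96. The overlapping gene Gm15217, which counting without strand cannot keep apart, covers 3.96% of the Bmp4 exon bases.

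Bmp6, the ligand best known for inducing hepcidin and also an inducer of bone (chr13:38345107-38500302, plus strand), was the other ligand with its highest level far above the rest in MSC-L. In young cells Bmp6 stood at 647 CPM in MSC-L, 38.6 in MSC-S, 101 in OPr, 46.3 in mOPr, 90.2 in AEC and 110.4 in SEC. In old cells Bmp6 stood at 456 CPM in MSC-L, 33.5 in MSC-S, 55.5 in OPr, 79.1 in mOPr, 115 in AEC and 75.6 in SEC. MSC-L stood apart at both ages, 5.86 times above the next population in young and 3.98 times in old cells, and of the neighbours in the order only mOPr and SEC overlapped, in old cells. Over young MSC-L the cells ran from 0 to 2069 CPM with a median of 535, and 49 of 53 carried the gene. Over old MSC-L they ran from 0 to 1566 CPM with a median of 297, and 50 of 58 carried it. The old cells were lower in sum, with a log2 ratio of −0.50 (−0.54 to −0.47), −1.17 in the lowest and −0.16 in the middle range.

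Outside MSC-L cells of another identity held most of the Bmp6 counts of OPr at both ages, of old mOPr and of young SEC (82.7%), and 44.1% of those of old SEC. The 3 young OPr of M1 and M2 held 63.3% of the young OPr counts, and the 10 old ones 98.4%, and the log2 ratio of OPr was −0.87 over all cells and −4.68 without them. In old mOPr the 14 cells of M1 and M2 stood at 149.99 CPM and the other 12 at 0.169 CPM, which turned the ratio of mOPr from 0.77 to −8.07 (−13.38 to −5.59), the latter with 1 old count. In young SEC the 9 cells of E1 or with mesenchymal markers stood at 607 CPM and the other 61 at 22.5 CPM. In old SEC the 5 such cells stood at 406 CPM and the other 66 at 46.04 CPM, so the SEC ratio turned from −0.55 to 1.03. The turn rested largely on 1 old cell of 2692 CPM. That cell lay in E3, outside the 5, and held 42.1% of all old SEC counts. Over all SEC, leaving out the top cell of each age gave −1.02. AEC differed from this, since 23 of 78 young and 29 of 77 old AEC outside E1 and E2 and without mesenchymal markers carried Bmp6, at 78.9 and 114 CPM in sum. Txndc5, a gene on the other strand with 73640 counts in the table, covers 5.74% of the Bmp6 exon bases, so low Bmp6 values are uncertain.

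Bmp5, a ligand that shapes skeletal elements in the embryo (chr9:75775364-75900310, plus strand), was also highest in MSC-L. In young cells Bmp5 stood at 155 CPM in MSC-L, 58.7 in MSC-S, 121 in OPr, 38.9 in mOPr, 2.35 in AEC and 7.52 in SEC. In old cells Bmp5 stood at 239 CPM in MSC-L, 59.01 in MSC-S, 95.7 in OPr, 84.3 in mOPr, 2.04 in AEC and 7.86 in SEC. No neighbours overlapped at either age, the mesenchymal populations were above the endothelial ones, and AEC were lowest. Its median over cells was 106 CPM in young and 147 CPM in old MSC-L, with highest cells of 1336 and 1967 CPM, and 38 of 53 young and 46 of 58 old cells carried it. Old MSC-L were higher by a log2 ratio of 0.62 (0.56 to 0.69), with 0.72 in the lowest and 0.58 in the middle range. In mOPr, where 10 of 26 cells carried it at each age, the log2 ratio was 1.11 (0.96 to 1.26), with 0.68 in the lowest range, 4.87 in the middle range and 1.12 without M1 and M2. In OPr it was −0.34 over all cells and −2.52 without M1 and M2. In SEC it was 0.06, but 5.63 (3.74 to 8.69) from 2 young counts without E1, E2 and cells with mesenchymal markers, which held 98.8% of the young and 38.04% of the old counts. The old side of this ratio rested on 1 cell as well. Of the other 66 old SEC 1 carried Bmp5, and the highest cell held 60.7% of all old SEC counts. Over all SEC, leaving out the top cell of each age gave −0.56. Gm26903, an antisense transcript, covers 46.7% of the Bmp5 exon bases and had 527 counts of its own, and counting without strand cannot assign the reads of the shared bases, so the Bmp5 levels are uncertain.

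Bmp2, which can induce bone on its own and is needed for fracture healing (chr2:133552159-133562885, plus strand), was spread over the populations. In young cells Bmp2 stood at 6.45 CPM in MSC-L, 69.5 in MSC-S, 45.4 in OPr, 105 in mOPr, 27.8 in AEC and 55.2 in SEC. In old cells Bmp2 stood at 44.5 CPM in MSC-L, 34.02 in MSC-S, 29.5 in OPr, 113 in mOPr, 61.3 in AEC and 37.97 in SEC. The highest level was that of mOPr at both ages and the lowest that of MSC-L in young and of OPr in old cells, and the neighbours with overlapping intervals were SEC and MSC-S in old cells. At both ages fewer MSC-L than MSC-S carried Bmp2, 4 of 53 against 27 of 59 in young and 11 of 58 against 26 of 59 in old cells.

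With age Bmp2 was higher in MSC-L, lower in MSC-S and higher in AEC. In MSC-L the median over cells was 0 at both ages, the highest cell stood at 134 CPM in young and 901 CPM in old cells, and the log2 ratio was 2.79 (2.53 to 3.05). That ratio was −0.27 in the lowest and 3.40 in the middle range, so it turned with the range, and 1 old cell held 50.4% of the old counts, with a ratio of 2.67 left without the top cells. In MSC-S the medians were 5.73 and 4.47 CPM, the highest cells 728 and 345 CPM, and the log2 ratio was −1.03 (−1.13 to −0.93), with −0.75 and −1.12 in the lowest and middle ranges and −0.98 without the top cells. The share of MSC-S that carried it was similar at both ages, and the highest old cell was lower than the highest young one. In AEC 19 of 84 young and 21 of 82 old cells carried Bmp2, with highest cells of 327 and 1082 CPM, and the log2 ratio was 1.14 (1.03 to 1.25). Old AEC were higher in the lowest, middle and highest ranges (1.09, 1.23 and 0.80), by less than 2-fold in the last. The ratio also fell under 2-fold without E1, E2 and cells with mesenchymal markers (0.92) and without the top cells (0.98). In OPr the ratio of −0.62 split into 1.42 in the lowest and −2.44 in the middle range, and without M1 and M2 it was −3.59.

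Bmp7, a ligand of kidney, eye and skeletal development (chr2:172868012-172940321, minus strand), was above 2 CPM in young OPr and in mOPr of both ages and in no other group. In young cells Bmp7 stood at 0.0877 CPM in MSC-L, 1.04 in MSC-S, 52.9 in OPr, 18.4 in mOPr, 0.545 in AEC and 0.821 in SEC. In old cells Bmp7 stood at 0.308 CPM in MSC-L, 0.179 in MSC-S, 0.327 in OPr, 21.5 in mOPr, 0.258 in AEC and 1.25 in SEC. Young OPr were highest, and in old cells mOPr stood 17.1 times above the next population, while the intervals of several low neighbours overlapped (MSC-S with SEC and SEC with AEC in young cells, and OPr, MSC-L, AEC and MSC-S in turn in old cells). Of 44 young OPr 16 carried Bmp7, from 0 to 743 CPM with a median of 0, whereas of 29 old OPr 1 carried it, at 15.1 CPM. The log2 ratio in OPr was −7.34 (−8.65 to −6.29), with −7.02 in the middle range, −6.63 without M1 and M2 and −6.91 without cells carrying hematopoietic markers. In the lowest range old OPr had no count of Bmp7 and stood at least 84.5-fold lower. Of the young counts 83.8% came from the 15 young OPr of cluster M3, at 130.2 CPM, and 1 old OPr fell in that cluster. Without M3, for which Bmp7 was a guide gene of the clustering, the ratio was −5.26. Without the top cells no old count was left, and old OPr stood at least 289-fold lower. In mOPr 2 of 26 young and 4 of 26 old cells carried it and the ratio was 0.22 (−0.03 to 0.47), but −1.36 in the lowest range, 1.76 in the middle range and 1.22 without M1 and M2. Of the young mOPr counts 75.8% lay in 1 cell, and 1.53 was left without the top cells.

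Bmp3, a ligand known to oppose the osteogenic BMPs through a type II receptor (chr5:98854415-98884396, plus strand), was rare and mesenchymal. In young cells Bmp3 stood at 7.103 CPM in MSC-L, 2.03 in MSC-S, 14.8 in OPr, 48.3 in mOPr, 0 in AEC and 0 in SEC. In old cells Bmp3 stood at 14.2 CPM in MSC-L, 3.27 in MSC-S, 50.7 in OPr, 85.1 in mOPr, 0 in AEC and 0.0965 in SEC. The order of the sums from mOPr through OPr and MSC-L to MSC-S was the same at both ages with no overlap between these 4, but the sums of MSC-L and MSC-S rested on few cells. In young MSC-L 1 cell held 99.4% of the counts, in young MSC-S 87.1%, in old MSC-L 45.3% and in old MSC-S 100%. Without the top cells the order of these 2 turned in young cells, with 0.0448 CPM in MSC-L, from 1 count, and 0.266 CPM in MSC-S, from 9 counts, while old MSC-L kept 7.896 CPM and old MSC-S no count. AEC and SEC overlapped at or near 0. For a level of 0, the 3 counts of the floor correspond to 0.0861 CPM in young AEC, 0.08602 CPM in old AEC and 0.137 CPM in young SEC. Few cells made up the sums, since 3 of 26 mOPr carried it at each age and 5 of 44 young and 3 of 29 old OPr did. The top cell held 57.9% of the counts in young and 39.6% in old mOPr, and 21.1 and 52.9 CPM were left without these cells. In old OPr 1 cell of 1642 CPM held 79.6% of the counts. The log2 ratio in OPr was 1.77 (1.61 to 1.94), but −5.51 in the lowest range, 3.09 in the middle range and 0.67 once the top cell of each age was left out.

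Chrdl1, a chordin-like antagonist that binds BMPs outside the cell (chrX:143285674-143394262, minus strand), was the highest antagonist of MSC-L. In young cells Chrdl1 stood at 1692 CPM in MSC-L, 62.2 in MSC-S, 371 in OPr, 20.9 in mOPr, 10.99 in AEC and 135 in SEC. In old cells Chrdl1 stood at 1652 CPM in MSC-L, 517 in MSC-S, 713 in OPr, 381 in mOPr, 1.46 in AEC and 105 in SEC. No neighbours overlapped at either age. Every old MSC-L carried it (58 of 58), and 51 of 53 young MSC-L did. Over cells it ran from 1.497 to 4588 CPM with a median of 1609 in young MSC-L, and from 10.3 to 4449 with a median of 1515 in old MSC-L. The ages overlapped, with a log2 ratio of −0.03 (−0.06 to −0.01) and of −0.08 and −0.01 in the lowest and middle ranges.

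In MSC-S, Chrdl1 was higher in old cells. It was carried by 14 of 59 cells (23.7%, interval 13.6% to 36.6%) in young MSC-S, up to 985 CPM, and by 23 of 59 cells (38.98%, interval 26.5% to 52.6%) in old MSC-S, up to 4981 CPM. The medians of 0 and 1.83 CPM show that the difference lay in a minority of cells. The log2 ratio was 3.06 (2.99 to 3.12), with 2.00 in the lowest and 3.39 in the middle range. Cluster M9 was made up of 10 old MSC-S and no young cell, each of the 10 carried Chrdl1, and they stood at 1917 CPM and held 79.2% of the old counts. The other 49 old MSC-S stood at 137 CPM, and without M9 the ratio was 1.14 (1.06 to 1.21). Of the MSC-L markers, Lepr stood at 671 CPM and Cxcl12 at 90.4 CPM in them, against 3309.9 and 40496 CPM in the old MSC-L of M1 and M2.

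In old mOPr and old OPr most Chrdl1 counts lay in cells placed with MSC-L, a placing in which Chrdl1 took part as a guide gene. Among mOPr 3 of 26 young and 13 of 26 old cells carried it, up to 391 and 2252 CPM with medians of 0 and 31.1, and the log2 ratio was 4.19 (4.02 to 4.36), or 5.10 without the top cells. The 14 old mOPr of M1 and M2 stood at 685 CPM and held 94.7% of the old counts. Without these clusters 24 young and 12 old mOPr stood at 17.3 and 42.3 CPM, a log2 ratio of 1.29, with 1 of the 12 old cells at 10 CPM or more. In OPr, where the 10 old cells of M1 and M2 held 97.9% of the old counts, the ratio turned, from 0.94 (0.91 to 0.98) over all cells to −2.66 (−2.82 to −2.49) without M1 and M2, where 18 of 41 young and 2 of 19 old cells carried it. The 19 included cells with hematopoietic markers, and of the 10 old OPr with at least 7 such markers 1 carried Chrdl1.

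In SEC Chrdl1 came mostly from cells with mesenchymal transcripts. The 9 young SEC of E1 or with mesenchymal markers stood at 848 CPM and held 94.1% of the young SEC counts. In old SEC the 5 cells of E1 or E2 or with mesenchymal markers stood at 873 CPM and held 68.03%. The other SEC stood at 9.39 CPM in young and 36.6 CPM in old cells, which turned the ratio of SEC from −0.36 to 1.96. In AEC the cells of E1 or E2 or with mesenchymal markers held 95.04% of the young counts but 1.96% of the 51 old ones. There 1 cell carried it at each age, the young one held 94.5% of the young counts, and the log2 ratio of −2.91 (−3.36 to −2.49) became 0.80 without the highest cell of each age and 1.36 without E1, E2 and cells with mesenchymal markers.

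Grem1, the secreted antagonist gremlin (chr2:113746164-113758646, minus strand), was almost absent from MSC-S. In young cells Grem1 stood at 394 CPM in MSC-L, 0.463 in MSC-S, 78.4 in OPr, 8.71 in mOPr, 7.72 in AEC and 42.3 in SEC. In old cells Grem1 stood at 349.8 CPM in MSC-L, 0.434 in MSC-S, 161 in OPr, 221 in mOPr, 5.05 in AEC and 25.2 in SEC. MSC-L were highest at both ages, and the intervals of mOPr and AEC overlapped in young cells. In MSC-L 43 of 53 young cells carried it, from 0 to 2422 CPM with a median of 275, and 45 of 58 old cells, from 0 to 1831 with a median of 229. The ages overlapped, with a log2 ratio of −0.17 (−0.22 to −0.12). In MSC-S 1 of 59 cells carried it at each age.

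The Grem1 counts of old mOPr and old OPr lay almost wholly in cells of M1 and M2, clusters built with Grem1 among their guide genes. In mOPr 2 of 26 young cells carried it, up to 290.1 CPM, and 8 of 26 old cells, up to 1340.3 CPM, with medians of 0 and 1.38. The log2 ratio was 4.67 (4.41 to 4.93), 3.21 in the lowest and 10.92 (8.44 to 16.22) in the middle range, where young cells had 1 count, and 7.35 without the top cells. The 14 old mOPr of M1 and M2 stood at 419 CPM and held 99.9% of the old counts, and none of the other 12 carried it. Without these clusters the ratio turned to −4.75 (−7.81 to −2.86), from 2 old counts, and 1 young cell outside them held 89% of all young mOPr counts. In OPr 6 of 44 young and 9 of 29 old cells carried it, and the log2 ratio was 1.04 (0.96 to 1.11), or 1.79 without the top cells. The 10 old OPr of M1 and M2 held 99.9% of the old counts, and without these clusters the ratio turned to −5.75 (−8.81 to −3.89), from 2 old counts. In SEC the cells of E1 or E2 or with mesenchymal markers held 80.3% of the young and 54.8% of the old counts, and the other SEC stood at 9.82 and 12.4 CPM, which turned the ratio from −0.75 to 0.34.

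Nog encodes noggin, which binds BMP dimers and keeps them from their receptors (chr11:89300638-89302332, minus strand), and it was low and carried by few cells. In young cells Nog stood at 5.57 CPM in MSC-L, 3.65 in MSC-S, 22.9 in OPr, 0.548 in mOPr, 0.889 in AEC and 1.96 in SEC. In old cells Nog stood at 5.898 CPM in MSC-L, 11.7 in MSC-S, 1.17 in OPr, 15.1 in mOPr, 4.53 in AEC and 4.15 in SEC. Young OPr and old mOPr were highest, AEC and mOPr overlapped in young cells, and AEC overlapped with both MSC-L and SEC in old cells. Of 44 young OPr 9 carried Nog, up to 390.3 CPM, against 1 of 29 old OPr at 19.8 CPM, and the median was 0 at both ages. The log2 ratio in OPr was −4.29 (−4.93 to −3.72), with −4.26 in the middle range and −5.42 without M1 and M2. In the lowest range old OPr had no count of Nog and stood at least 11.01-fold lower. As with Bmp7, most young counts (86.4%) came from the 15 OPr of M3, and without that cluster the ratio was −2.43. Without the top cells it was −5.06.

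In mOPr and MSC-S the Nog ratios rested on 1 cell and on 1 cluster, and in AEC the ratio turned with the range. In old mOPr 1 of 26 cells carried Nog, at 222 CPM, and held 99.5% of the counts behind the log2 ratio of 4.78 (3.77 to 6.01); without the highest cell of each age too few counts were left for a ratio. In MSC-S the ratio was 1.68 (1.40 to 1.98), M9 held 99.3% of the old counts, and without M9 it was −5.23 (−7.52 to −3.65), from 3 old counts. The highest old cell held 79.96%, and leaving out the top cell of each age gave 0.44. In AEC it was 2.35 (1.79 to 2.95), but −0.09 in the lowest and −0.35 in the highest range, against 4.98 in the middle range, and over all ranges 1.77 without the top cells and 1.77 without E1, E2 and cells with mesenchymal markers. In SEC more old cells reached 10 CPM of Nog, 10 of 71 cells (14.1%, interval 6.97% to 24.4%) against 2 of 70 cells (2.86%, interval 0.348% to 9.94%) in young SEC, while any count of it was found in 28 of 71 old (39.4%) and 31 of 70 young SEC (44.3%). The SEC ratio was 1.08 (0.54 to 1.64), with 0.74 without the highest cell of each age and 1.01 without E1, E2 and cells with mesenchymal markers.

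Bambi, the kinase-less pseudoreceptor on chromosome 18, was highest in SEC by summed counts. In young cells Bambi stood at 37.4 CPM in MSC-L, 45.1 in MSC-S, 131 in OPr, 185 in mOPr, 165 in AEC and 206 in SEC. In old cells Bambi stood at 41.9 CPM in MSC-L, 48.04 in MSC-S, 85.3 in OPr, 75.4 in mOPr, 83.9 in AEC and 209.9 in SEC. No neighbours overlapped in young cells, and OPr and AEC overlapped in old cells. Among young cells mOPr stood above SEC once median-of-ratios size factors or counts thinned to 100000 per cell were used. Among SEC 48 of 70 young and 40 of 71 old cells carried it, with medians of 67.3 and 28.1 CPM and highest cells of 1816 and 1552 CPM, and the log2 ratio was 0.03 (−0.03 to 0.09). The intervals of the SEC levels overlapped between ages. In AEC it was carried by 42 of 84 young and 26 of 82 old cells, with a log2 ratio of −0.98 (−1.04 to −0.91), just under 2-fold, and old AEC were lower in the lowest, middle and highest ranges (−1.90, −0.60 and −1.61). Without E1, E2 and cells with mesenchymal markers the AEC ratio was −1.22, and without the top cells −1.13. In mOPr it was carried by 19 of 26 young cells, with a median of 127 CPM, and by 7 of 26 old cells, with a median of 0. The log2 ratio in mOPr was −1.29 (−1.40 to −1.19), −2.80 in the lowest and −0.67 in the middle range. Of the old mOPr, 2 of the 14 in M1 and M2 and 5 of the other 12 carried Bambi, and without M1 and M2 the ratio was −0.41. A single old cell held 75.8% of the counts, and leaving out the top cell of each age gave −3.15.

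To set genes beside each other, CPM were divided by exon length in kb. In young MSC-L Bmp4 stood at 286 CPM per kb, Chrdl1 at 250.4, Bmp6 at 166, Grem1 at 94.9 and Bmp5 at 38.5, so that per length Bmp4 was above Chrdl1 although its CPM were lower. Summed over the ligands Bmp2, Bmp4, Bmp5, Bmp6 and Bmp7 and over the antagonists Grem1, Nog and Chrdl1, young MSC-L had 492 CPM per kb of ligands and 349 of antagonists, and old MSC-L had 457 and 332. Both sums were higher there than in any other population. Young mOPr had 194 CPM per kb of ligands and 5.52 of antagonists, and old mOPr had 138 and 119. The antagonist sum over the ligand sum was therefore 0.0285 in young and 0.8602 in old mOPr, and 0.0251 and 0.159 without M1 and M2. The value of 0.159 rested mostly on 1 cell. In old mOPr outside M1 and M2, Nog stood at 31.6 CPM, and 1 of these 12 cells carried it. In OPr the antagonist sum over the ligand sum was 0.924 in young and 0.846 in old cells, and 0.6099 and 0.129 without M1 and M2. In MSC-S it was 0.119 in young and 1.33 in old cells, the latter the group with more antagonist than ligand. Without the 10 cells of M9 the old value was 0.362, with less antagonist than ligand. In MSC-L it was 0.709 and 0.727. AEC had little antagonist, with 0.0728 in young and 0.0566 in old cells, and the order of the ages turned without E1, E2 and cells with mesenchymal markers (0.0175 and 0.0328). SEC had 0.324 and 0.265, or 0.0713 and 0.153 without such cells. Transcript sums do not measure protein or activity.

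**Figure D2:**
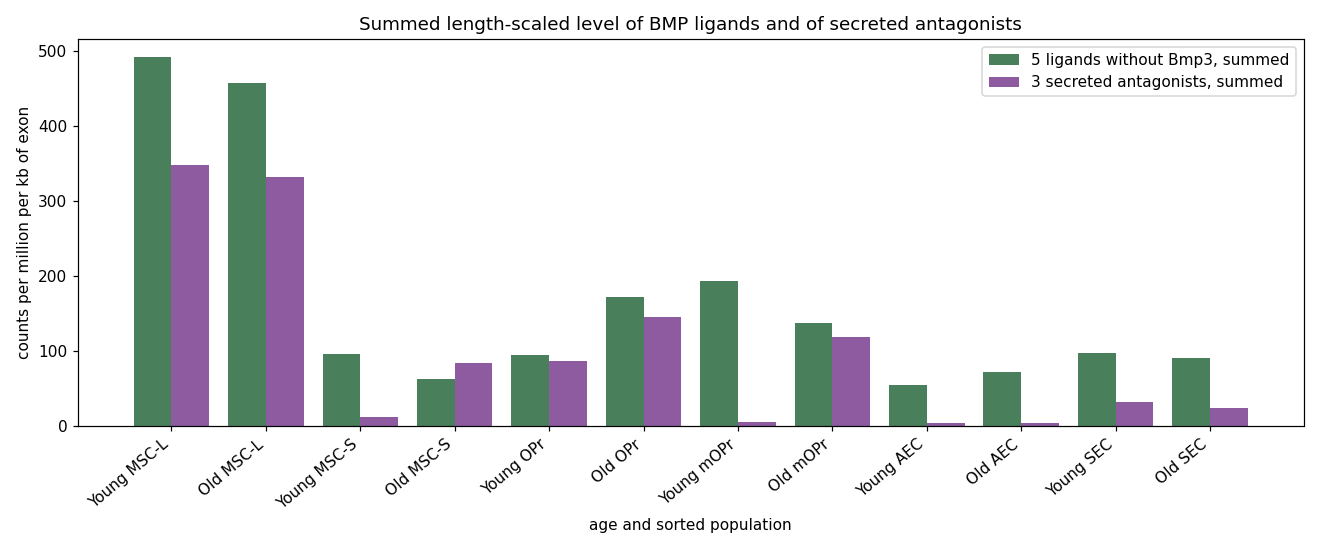
Summed level of 5 ligands (Bmp2, Bmp4, Bmp5, Bmp6 and Bmp7) and of 3 secreted antagonists (Grem1, Nog and Chrdl1) in each population and age, in CPM per kb of exon. Ligand bars are higher than antagonist bars in each group but old MSC-S, and young mOPr and both AEC groups have antagonist bars close to 0.

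Ligands and antagonists were also counted together cell by cell. At least 1 of the 5 ligands and at least 1 of the 3 antagonists were carried together by 50 of 53 young and 56 of 58 old MSC-L, and the median number of ligands per cell was 3 at both ages. Bmp4 and Bmp6 were carried together by 39 young and 38 old MSC-L, and Grem1 and Chrdl1 by 43 and 45. With Chrdl1 alone in 51 of 53 young and 58 of 58 old MSC-L, the numbers with an antagonist, or with Chrdl1 beside Grem1, could hardly differ from the numbers with a ligand or with Grem1. Among mOPr 4 of 26 young and 13 of 26 old cells carried both kinds, and 17 young and 10 old cells ligands alone. AEC had ligands alone in 44 of 84 young and 48 of 82 old cells, both kinds in 6 and 4, and neither in 34 and 27. SEC had ligands alone in 32 of 70 young and 27 of 71 old cells, and both kinds in 16 and 15. Young MSC-S had ligands alone in 33 of 59 cells and both kinds in 13, and old MSC-S in 27 and 18. None of the MSC-S carried Grem1 together with Chrdl1 at either age.

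The comparison of old with young cells asked, population by population, how many of the 10 genes differed at least 2-fold where a gene was tested if 5 or more cells held it and its counts came to 100 or more. In MSC-L 1 of 9 did (Bmp2, higher), where 28.2% of all genes tested did. In MSC-S 3 of 7 did (Nog and Chrdl1 higher, Bmp2 lower), against 23.7% of all genes. OPr had 5 of 10 (Bmp3, Bmp4 and Grem1 higher, Bmp7 and Nog lower) against 48.3%, and mOPr 6 of 10 (Bmp5, Grem1, Nog and Chrdl1 higher, Bmp4 and Bambi lower) against 46.5%. In AEC 3 of 8 passed (Bmp2 and Nog higher, Chrdl1 lower), against 25% of all genes, and in SEC 1 of 8 (Nog, higher), against 23.4%. The shares of OPr and mOPr were near those of all genes. Without the top cell of each age the counts were 2 of 9 in MSC-L (31.9% of all genes), 1 of 7 in MSC-S (26.8%), 6 of 10 in OPr (54%), 6 of 9 in mOPr (52.8%), 2 of 8 in AEC (28%) and 2 of 8 in SEC (26.4%). The median log2 ratio of the genes tested was 0.08 in MSC-L, 0.01 in MSC-S, −0.48 in OPr, 0.79 in mOPr, −0.05 in AEC and −0.17 in SEC, where over all genes it was 0.02, −0.06, 0.15, 0.12, −0.03 and 0.06. The genes not tested were Bmp7 in MSC-L, Bmp3, Bmp7 and Grem1 in MSC-S, and Bmp3 and Bmp7 in AEC and SEC. Without M1 and M2, 9 of the 10 differed in OPr, against 56.6% of all genes, and 8 of the 10 in mOPr, against 55.8%. The median log2 ratio of the 10 genes in OPr was then −3.125, against −0.21 over all genes. With hematopoietic-marked cells left out as well it was −2.24, against 0.03 over all genes. Without E1, E2 and cells with mesenchymal markers 2 of 5 differed in AEC, against 25.2% of all genes, and 3 of 7 in SEC, against 25%. Bmp4, Bmp7 and Nog in OPr and Chrdl1 in MSC-S and mOPr differed at least 2-fold in 1 direction under every alternative tried. Bmp7 and Chrdl1 were guide genes of the mesenchymal clusters, so for these genes the values without a cluster were no check.

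**Figure D3:**
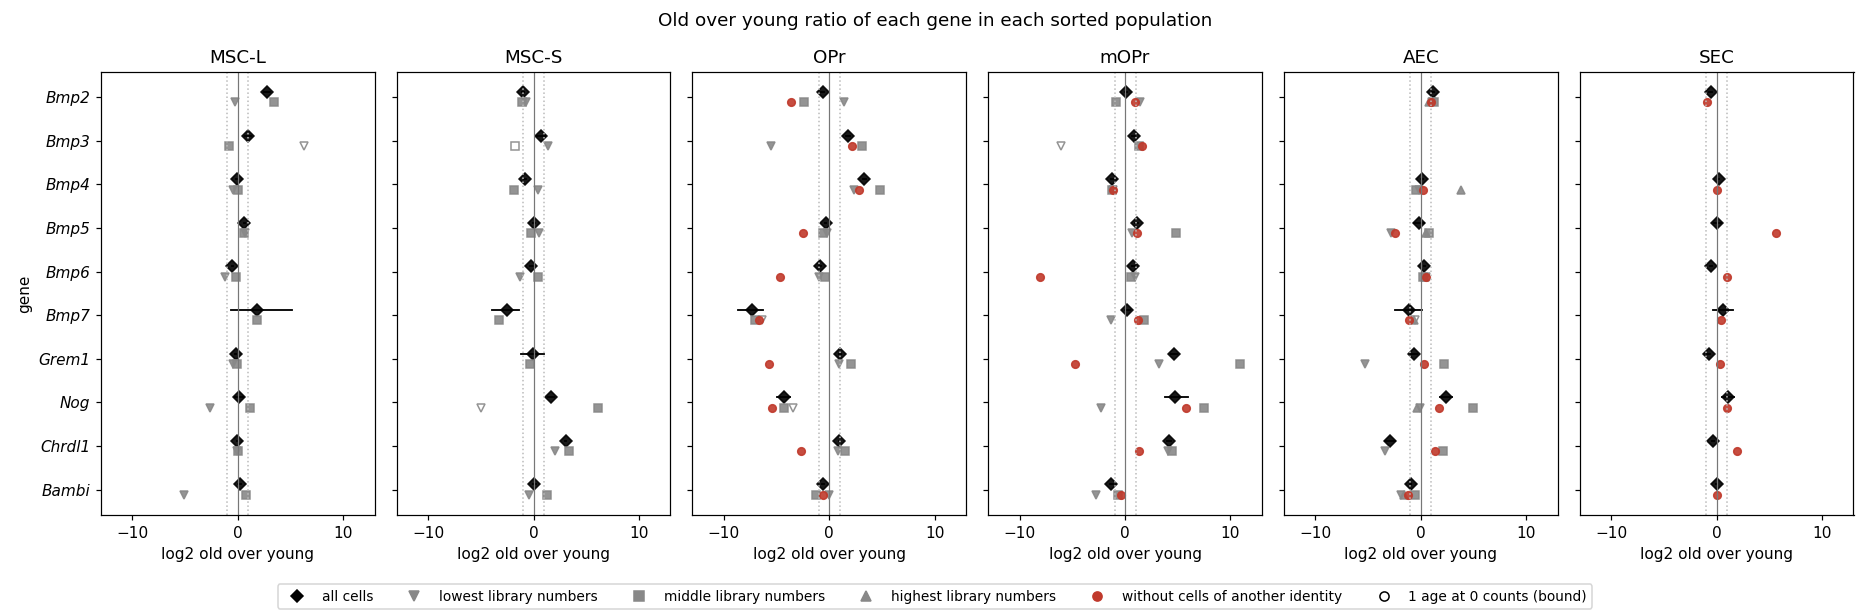
Log2 ratio of old over young for each gene in each population, from all cells with 95% intervals (black), within each range of library numbers (grey) and without cells of M1 and M2 in OPr and mOPr or of E1 and E2 and cells with mesenchymal markers in AEC and SEC (red), open symbols marking bounds where 1 age had no count. In OPr and mOPr the red symbol of Grem1 lies on the other side of 0 from the black, while those of Bmp4, Bmp7 and Nog in OPr stay on the same side.

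The ICGS clusters of the study, which follow the sort only in part, give the same genes by transcriptome. Since 5 of the 10 were guide genes of 1 or both clusterings, these levels are a description of the clusters. M1, of 86 cells, had 706 CPM of Bmp4, 563 of Bmp6, 452 of Grem1 and 1829 of Chrdl1. M2, of 50 cells, had lower levels of these (161, 205, 235 and 1011 CPM) but 62.3 CPM of Bmp3 (34.4% of it in 1 cell) against 1.95 in M1. The M1 and M2 levels of Bmp5 were close, at 179 and 197 CPM. Among OPr-like clusters M3 had Bmp7 (121 CPM), Nog (54.6, 42.8% in 1 cell) and Chrdl1 (384) but 0.372 CPM of Bmp4, M4 had Bmp5 (211, 62.1% in 1 of 13 cells) and Bambi (183, 39.4% in 1 cell), and M5 had Bmp3 (75.4, 37.4% in 1 cell) and Bmp4 (85.8). Among MSC-S-like clusters M12 had Bmp4 (268 CPM, 46.4% in 1 of 27 cells, beside 221 in M8), M15 had Bmp2 (114, 35.2% in 1 cell) and M9 had Chrdl1 (1917), Bmp5 (206, 47.2% in 1 cell) and Nog (54.5, 80.5% in 1 cell).

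Of the endothelial clusters E1, of 14 cells, had 575 CPM of Bmp6, 932 of Chrdl1, 253 of Grem1 and 240.3 of Bmp4. Bambi was highest in E6 (317 CPM) and in the SEC-like E7 (237), and lower in the AEC-like E3 (89.3) and E4 (108). Bmp6 stood at 128 CPM in E3, 195 in E5 and 15.3 in E7, while Bmp4 stood at 116 CPM in E7. E2, of 8 cells, had 237 CPM of Bmp2, of which 1 cell held 63.1%. Clusters M10, M11 and M13 held 1 cell each and M14 held 4, and among their highest counts were 799 of Bmp4 and 201 of Bambi in M13, 181 of Chrdl1 in M11, and 333 of Bambi and 164 of Bmp2 in M14.

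**Figure D4:**
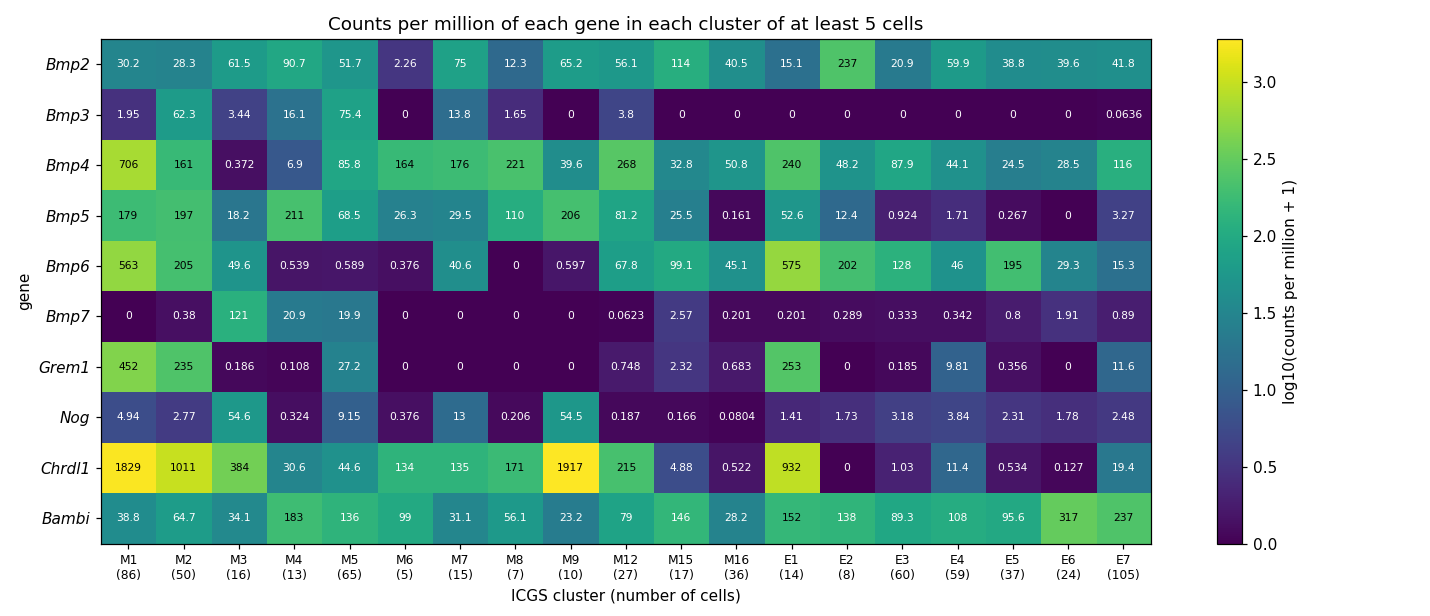
CPM of the 10 genes in the 19 clusters of at least 5 cells, with the number of cells under each cluster name and colour on a log10 scale. Bmp6 is highest in E1 and M1, Grem1 in M1, E1 and M2, Chrdl1 in M9 and M1, Bmp7 in M3, and Nog in M3 and M9.

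AEC of the endosteum and SEC of the central marrow were compared within the highest range of library numbers, which held 24 young and 23 old AEC and all SEC. Of 7 genes tested in young cells 4 differed at least 2-fold (Bmp4, Bmp5, Grem1 and Chrdl1, each higher in SEC), and of 8 in old cells 5 did (Bmp5, Grem1, Chrdl1 and Bambi higher in SEC, Bmp6 higher in AEC). Over all genes the shares were 44.4% in young and 44.8% in old cells. The higher Bmp5 of old SEC rested on 1 cell, which held 60.7% of the old SEC counts. Old SEC stood at 7.86 CPM of Bmp5 over all cells and at 3.12 CPM without that cell. The latter lay below the 3.93 CPM of the 23 old AEC, from which no cell was left out. Bmp4 stood at 6.49 CPM in young AEC and 115 in young SEC, a log2 ratio of AEC over SEC of −4.14 (−4.62 to −3.70), and at 91.9 and 131 CPM in old cells, a ratio of −0.52 (−0.65 to −0.39). The low level of young AEC was that of this range. Over the AEC of all ranges Bmp4 stood at 52.6 CPM in young and 56.8 in old cells. Within the highest range alone it was at least 2-fold higher in old AEC. Chrdl1 had no count in the 24 young AEC against 135 CPM in young SEC, at least 292-fold lower, and Grem1 had none in the 23 old AEC against 25.2 CPM in old SEC, at least 53.5-fold lower. Bambi stood at 269.7 CPM in AEC and 206 in SEC among young cells (log2 ratio 0.39), and at 88.6 and 209.9 among old cells (−1.24), so the higher population changed with age. Bmp6 stood at 119.6 and 110.4 CPM in young AEC and SEC, with a ratio of 0.12 (0.00 to 0.23), and at 160.3 and 75.6 CPM in old cells, with a ratio of 1.09.

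Without E1, E2 and cells with mesenchymal markers, 22 young and 20 old AEC and 61 and 66 SEC of that range were left, and several of these differences changed. Bmp5 then stood at 0.1698 CPM in young AEC and 0.107 in young SEC, too few counts for a ratio. In old cells Bmp5 had no count in AEC and stood at 5.31 CPM in SEC, where 1 of the 66 cells carried it. Bmp6 stood at 131 and 22.5 CPM in young AEC and SEC, a log2 ratio of AEC over SEC of 2.55, and at 187 and 46.04 CPM in old cells, a ratio of 2.02. Bmp2 in young cells moved from −0.84 to −1.33, past 2-fold. The ratio of Bmp4 was −3.88 in young and −0.01 in old cells. Chrdl1 was at least 18.4-fold lower in young AEC and Grem1 at least 22.1-fold lower in old AEC, again without a count in AEC. Bambi was at 0.49 in young and −1.06 in old cells.

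Likeness between genes was measured by Pearson's r of log2 levels over the 12 groups of population and age, among 12983 genes, as a description of patterns alone. The groups come in age pairs and differ in depth, so they are not independent points. For the ligands the genes most alike were RP23-418O21.5 (0.8496), Otud3 (0.829) and Phldb1 (0.829) for Bmp2, Dnah7b (0.952), D630003M21Rik (0.943) and Aph1c (0.929) for Bmp3 and Hunk (0.945), Cbln1 (0.937) and Plxna1 (0.933) for Bmp4. For Bmp5 they were Gli3 (0.976), Runx1 (0.975) and Gpx8 (0.971), for Bmp6 Nudt22 (0.948), Wdr11 (0.935) and Gabbr2 (0.928) and for Bmp7 Ostn (0.982), Zdbf2 (0.903) and Gpr3 (0.8904). Among antagonists they were Kng1 (0.976), Gdpd2 (0.971) and Cdh2 (0.971) for Grem1, Zdhhc13 (0.941), Zcwpw1 (0.885) and D030028A08Rik (0.879) for Nog and C4b (0.964), Cyp1b1 (0.937) and Adcy2 (0.935) for Chrdl1, and for Bambi Ttn (0.889), Jun (0.878) and Gm16070 (0.873). Of these 30 genes 9 were also among the 3 most alike by Spearman's measure. Among the 10 genes themselves the highest r was that of Bmp5 and Chrdl1 (0.839), followed by Bmp3 and Bmp5 (0.755) and Bmp6 and Grem1 (0.707), and the lowest that of Bmp5 and Bambi (−0.62).

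The rest of the pathway was read from lists of 67 other genes, of which 55 were tested in at least 1 population, and of 264 pairs of gene and population 49 were at least 2-fold higher and 38 at least 2-fold lower in old cells. Over all genes tested the shares higher and lower in old cells were 15.4% and 12.8% in MSC-L, 10.4% and 13.3% in MSC-S, 27.2% and 21.1% in OPr, 25.8% and 20.7% in mOPr, 11.1% and 13.9% in AEC and 14.6% and 8.8% in SEC. Without M1 and M2 they were 23.5% and 33.1% in OPr and 22.4% and 33.4% in mOPr. Of the other genes named BMP or GDF, with Mstn and the protease Bmp1 among them, 1 of 3 tested was higher in MSC-L, 2 of 6 higher and 1 lower in MSC-S, 2 of 5 higher and 1 lower in OPr, 2 of 4 higher in mOPr, 1 of 4 higher (Bmp1) and 3 lower in AEC, and 1 of 4 higher and 1 lower in SEC. Gdf10, a ligand of the same family, was higher in old MSC-L and MSC-S, at 13.02 CPM in young and 225 in old MSC-L (log2 ratio 4.11, 4.69 without the top cells) and at 143 CPM in young and 403 in old MSC-S. In OPr it stood at 71.7 CPM in young and 153 in old OPr (log2 ratio 1.09) and in mOPr at 94.1 CPM in young and 389.7 in old mOPr (log2 ratio 2.05), and without M1 and M2 these ratios were −0.84 and −0.19. In AEC Gdf10 was among the 3 genes lower in old cells. In SEC it was the 1 higher gene over all cells, but not without E1, E2 and cells with mesenchymal markers. Bmp1, a protease that cleaves procollagen and chordin, stood at 26.4 CPM in young and 63.3 in old AEC (log2 ratio 1.26).

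Of the other extracellular antagonists and modulators 4 of 12 tested in OPr were higher and 6 lower in old cells, and 2 of 10 in mOPr higher and 5 lower. Without M1 and M2 it was 1 of 11 higher and 9 lower in OPr and none of 8 higher and 3 lower in mOPr. In MSC-L 4 of 9 were lower, in MSC-S 2 of 13 higher and 2 lower, in AEC 1 of 7 higher and 1 lower, and in SEC 2 of 8 higher and 1 lower. Fst, the activin and BMP binding follistatin, stood at 66.6 CPM in young and 11.5 in old MSC-S (log2 ratio −2.54). In OPr Fst stood at 56.1 CPM in young and 229 in old OPr (log2 ratio 2.03), and the ratio was −4.86 without M1 and M2, clusters built with Fst among their guide genes. Twsg1, a chordin partner, was lower in old mOPr, at 327 CPM in young and 73.3 in old mOPr (log2 ratio −2.16), and Nbl1, a DAN family antagonist, stood at 305 CPM in young and 38.9 in old OPr (log2 ratio −2.97). Both ratios are over all cells, those of M1 and M2 included. In cells grouped by identity in place of sorting, Nbl1 was not among the genes at least 2-fold lower in OPr.

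Among receptors, Eng and Acvrl1, the coreceptor and type I receptor of endothelial BMP9 signalling, stood at 1222 to 2403 CPM and 292 to 480.3 CPM over the endothelial groups, and at 29.01 to 91.6 CPM and 9.61 to 126 CPM over the mesenchymal ones. Bmpr1a, a type I receptor for Bmp2 and Bmp4, stood at 88.3 to 184 CPM over mesenchymal and 6.13 to 12.6 CPM over endothelial groups. Over all cells old OPr had 5 of 12 receptors at least 2-fold higher and none lower, among them Bmpr2, the type II receptor, at 68.9 CPM in young and 174 in old OPr (log2 ratio 1.34). Without M1 and M2, 4 of 11 were higher and 3 lower, and in the lowest range 2 of 9 were higher and 2 lower, where over all genes 25.3% and 33.6% were. Bmpr2 was among the 4 higher without M1 and M2. It was not among those at least 2-fold higher in the lowest range or in cells grouped by identity in place of sorting. Of the 10 to 12 receptors tested in each population, MSC-L had 1 higher and 1 lower, MSC-S 1 lower, mOPr 3 higher and 1 lower, AEC 1 higher, and SEC 2 higher and 1 lower.

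Of the SMAD mediators and regulators none of 10 tested was at least 2-fold different in MSC-S and none of 9 in AEC or SEC, with 2 of 10 higher and 1 lower in MSC-L, and 1 of 9 higher and 1 lower in both OPr and mOPr. Without M1 and M2, 1 of 9 was higher and 5 lower in OPr, and 3 of 9 lower in mOPr. In MSC-L Skil, a SMAD corepressor, stood at 50.6 CPM in young and 105 in old MSC-L (log2 ratio 1.06) and the ubiquitin ligase Smurf1 at 61.7 CPM in young and 22.2 in old MSC-L (log2 ratio −1.48). Smad5, a BMP receptor SMAD, stood at 86.3 CPM in young and 6.13 in old OPr (log2 ratio −3.82). With cells grouped by identity in place of sorting, Skil was still at least 2-fold higher in MSC-L. Neither Smurf1 in MSC-L nor Smad5 in OPr was then among the genes at least 2-fold lower. Of the target genes induced by BMPs 5 of 12 tested were higher and 1 lower in old mOPr, and 1 of 12 higher and 3 lower in old OPr. Without M1 and M2 these were 2 of 11 higher and 3 lower in mOPr and 1 of 12 higher and 7 lower in OPr. In MSC-L 2 of 13 were higher and 2 lower, in MSC-S 1 of 12 higher, in AEC 4 of 12 higher and in SEC 3 of 11 higher. Without E1, E2 and cells with mesenchymal markers 1 of 9 was higher in AEC and 3 of 10 in SEC, where the shares of all genes higher and lower were 11.1% and 14.1% in AEC and 16.1% and 8.94% in SEC. Id3, a helix-loop-helix inhibitor induced by BMPs, stood at 1001 CPM in young and 464 in old MSC-L (log2 ratio −1.11) and at 754 CPM in young and 2174 in old mOPr (log2 ratio 1.53). The mOPr ratio of Id3 is over all cells, with 14 of 26 old but 2 of 26 young mOPr in M1 and M2. The MSC-L ratio of Id3 was −0.62 in the lowest range. Id1, of the same kind, went the other way in MSC-L, at 5.48 CPM in young and 36.98 in old MSC-L (log2 ratio 2.75), with 1.78 in the lowest and 2.99 in the middle range. In cells grouped by identity in place of sorting Id1 was still at least 2-fold higher and Id3 under 2-fold. Id2 stood at 219 CPM in young and 60.6 in old OPr (log2 ratio −1.85), and Msx1 at 50.98 CPM in young and 112 in old AEC (log2 ratio 1.14). Grouped by identity, Id2 was not among the genes at least 2-fold lower in OPr, nor Msx1 among those higher in AEC. Id2 also fell out of the lower genes of OPr without M1, M2 and cells with hematopoietic markers.

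Promoter sequence from RefSeq (build GRCm38.p6) was on hand for 4 of the 10 genes, and is shown for Bmp4, Bmp5 and Grem1, which share their highest level in MSC-L, as the 240 bases from 250 to 11 before the start. The window of Bmp6, which overlaps an annotated exon, is not shown. Both strands were searched for GGCGCC, a GC-rich SMAD1 and SMAD5 element held by 9.09% of 32841 promoters of this length, CAGAC, the SMAD4 box (40.9%), an EBF element (0.755%), TATAAA (12.1%) and CCAAT (33.05%). Capitals mark the matches. Bmp4 (chr14:46390680-46390919, minus strand) had none of these motifs and a GC share of 63.8%. Bmp5 (chr9:75775115-75775354, plus strand) had CAGAC on the other strand, read here as GTCTG, and 42.9% GC. Grem1 (chr2:113758659-113758898, minus strand) had the SMAD4 box, the GC-rich element and CCAAT and 72.1% GC, where the median of all promoters was 52.1%. The 3 windows thus had no motif in common, and a match describes letters and not binding.
Bmp4: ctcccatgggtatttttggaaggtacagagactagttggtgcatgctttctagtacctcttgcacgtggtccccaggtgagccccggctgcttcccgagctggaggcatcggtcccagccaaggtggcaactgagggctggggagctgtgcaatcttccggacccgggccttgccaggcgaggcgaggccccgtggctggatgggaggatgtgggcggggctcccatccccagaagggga
Bmp5: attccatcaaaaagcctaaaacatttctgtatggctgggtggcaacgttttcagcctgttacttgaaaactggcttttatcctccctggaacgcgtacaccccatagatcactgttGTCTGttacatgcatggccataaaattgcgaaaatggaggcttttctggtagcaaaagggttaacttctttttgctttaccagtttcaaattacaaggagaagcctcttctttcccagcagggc
Grem1: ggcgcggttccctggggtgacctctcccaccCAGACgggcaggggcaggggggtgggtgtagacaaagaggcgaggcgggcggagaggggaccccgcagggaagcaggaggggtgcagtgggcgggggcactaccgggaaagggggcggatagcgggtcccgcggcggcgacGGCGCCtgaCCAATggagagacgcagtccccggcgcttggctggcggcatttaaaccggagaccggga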

How the data were processed

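Raw counts per gene and cell were taken as deposited by the authors, who mapped reads to GRCm38.p4 (Ensembl 81) with GSNAP 2015-09-29 and counted them with HTSeq without strand. The 270 repeated symbols were summed, and mitochondrial genes were left out of totals. Counts of the cells of each population and age were summed and divided by their total. DESeq2 over cells was not used, since it takes cells as replicates of a condition, and no mouse is named. Doublets were not called. Genes were called at 2-fold if 5 or more cells held them and their counts came to 100 or more. Other pathway genes given with an age ratio were taken from those at least 2-fold different over all cells and in the same direction in every range of library numbers. These were 39 genes in 65 pairs of gene and population, and not all of them are named. Other values given beside them were chosen after they were seen. Alternatives were the mean over cells, other scaling, thinning, a pseudocount, no filter, each range, and leaving out the highest cell, cells with blood markers or cells of another identity. Leaving out M9, M3, or M1 and M2 together with blood-marked cells was chosen after seeing the data, as were the sums of antagonists over ligands and AEC against SEC without the cells of such clusters, and all-gene shares under other measures. Members and gene lists were chosen with earlier results of these data known. A self-test drew Poisson counts with ratios planted in genes of high counts and recovered them. Its cells differed by depth and counting error alone, so it checked the calculation and not the ratios given here. Work used matplotlib 3.10.9 for the figures and Python 3.11.15 with scipy 1.17.1, pandas 2.3.3 and numpy 2.4.6. Gene coordinates came from GENCODE M21.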

Additional observations from a re-analysis of the deposited data

Results flagged for a closer look

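Among the 10 genes, 3 had ratios of old over young of opposite sign and at least 2-fold size in different populations, counting ratios that kept their sign in every range of library numbers with enough cells. Bmp2 was higher in old AEC (1.14) and lower in old MSC-S (−1.03). Bmp4 was higher in old OPr (3.34) and lower in old mOPr (−1.22). Nog was higher in old SEC (1.08) and lower in old OPr (−4.29). All SEC lay in the highest range, so for SEC the rule on ranges tested nothing. By that rule Chrdl1 in AEC (−2.91), against higher Chrdl1 in old MSC-S (3.06) and mOPr (4.19), and the higher Nog of old MSC-S (1.68), mOPr (4.78) and AEC (2.35) were not counted. Some of the ratios counted fell under 2-fold under alternatives, namely 3 for Bmp2 in AEC, 4 for Bmp2 in MSC-S, 1 for Bmp4 in mOPr and 4 for Nog in SEC. Bmp2 in AEC was 0.80 in the highest range, 0.92 without cells of another identity and 0.98 with the top cell of each age left out. Bmp2 in MSC-S was −0.75 in the lowest range, −0.95 with median-of-ratios size factors, −0.92 with libraries thinned to 100000 counts and −0.98 without the top cells. Without them Bmp4 in mOPr was −0.96 and Nog in SEC 0.74. Nog in SEC was also 0.37 in cells grouped by identity, 0.80 with a pseudocount and 0.81 thinned. Values are log2 ratios, each group is 1 summed sample, and the difference between populations was not tested.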

How the results depend on the processing

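Of 52 pairs of gene and population with a ratio, 19 were at least 2-fold different, and their 212 values under alternatives kept the direction in 197 cases, of which 172 were at least 2-fold, and turned in 15. Some of these values could not differ from the main ones. Dropping the filter leaves a ratio that passed it as it was, and MSC-L, MSC-S, mOPr and AEC held no blood-marked cell to leave out. Turned log2 ratios in the lowest range were Bmp2 in MSC-L (−0.27), Nog in MSC-S (−5.03, a bound from 0 old counts), Bmp3 in OPr (−5.51), Nog in mOPr (−2.26, from 1 old count) and Nog in AEC (−0.0897); in the middle range Chrdl1 in AEC (2.12); and in the highest Nog in AEC (−0.35). With identity groups in place of the sort, Grem1 in OPr was −7.07 and Chrdl1 in AEC 3.78. Without cells of another identity, Grem1 was −5.75 in OPr and −4.75 in mOPr and Chrdl1 in AEC 1.36. Without M1, M2 and blood-marked cells Grem1 in OPr was −5.85, without M9 Nog in MSC-S was −5.23, and without the highest cells Chrdl1 in AEC was 0.80. The number of genes past 2-fold in MSC-L (1) was 2 in the lowest range (36.6% of all genes), the middle range (35.4%), identity groups (26.4%), the mean over cells (29.9%), thinning (30.4%), no filter (42.1%) and without the highest cells (31.9%). In MSC-S (3) it was 5 in the middle range (27.5%) and 1 without the highest cells (26.8%). In OPr (5) it was 8 in the middle range (51.7%) and with identity groups (48.3%), and 9 without cells of another identity, with blood-marked cells (56.6%) or without them (54%). In AEC (3) it was 5 by the mean over cells (25.3%) and by thinning (26.1%). In SEC (1) it was 3 with identity groups (24%) and without cells of another identity (25%), 2 without the highest cells (26.4%), and 0 with a pseudocount (20.7%) and with thinning (24.8%). The cause was not tested. Of 50 alternative levels in the highest young population 13 lay within the interval, and of 20 shares of cells 18 did. No paired analysis was possible because the numbers in the titles are cell numbers and no mouse is named. In mOPr, with 26 cells at each age, as in larger groups, 1 cell could hold most of a sum.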
